A study of Mus musculus with 12 samples.

Results

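Dentate gyrus granule neurons are the principal excitatory neurons of the dentate gyrus. They were identified among single nuclei from dissected cortices of mice at postnatal day 21 (P21). Of 78743 barcodes in all, 71914 held at most 12000 unique molecular identifiers (UMIs) and at most 1% mitochondrial UMIs. Of these, 59 nuclei met the membership criteria of at least 3 UMIs of Prox1, at least 1 UMI of Glis3, at least 1 UMI of Slc17a7 and none of Gad1 or Gad2. Nuclei with at least 1 UMI of Slc17a7 and none of Gad1 or Gad2 are called excitatory nuclei below, and 23237 of them were not granule neurons.

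The mice were wild type (WT) or heterozygous (Het) for the MYT1L S710fsX allele, a frameshift in the gene of a neuronal transcription factor. There were 6 animals of each genotype, 3 males and 3 females. All 12 animals had also received AAV9 Calling Cards reagents, a transposase and a tdTomato reporter, into the ventricles shortly after birth, so no group was free of virus. The comparison of genotypes asks whether the loss of a MYT1L allele alters the number or the transcripts of granule neurons.

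Granule neurons receive the perforant path from the entorhinal cortex and send mossy fibres to the hilus and CA3. Most of them are born after birth in rodents, and Prox1, a homeodomain transcription factor, specifies and maintains their identity. In adults they fire sparsely and are rich in the calcium buffer calbindin, encoded by Calb1.

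The 12 libraries held between 23429386 and 59958572 UMIs, and no barcode was shared between libraries. The granule neurons made up a small part of these, with 352629 UMIs in all. A granule neuron held between 2385 and 11719 UMIs, with a median of 5410, and a median of 2357 genes. The median of the other excitatory nuclei was 6138 UMIs. Summed over the granule neurons of an animal, the depth ranged from 5152 to 66751 UMIs. WT granule neurons held a median of 6316 UMIs and Het granule neurons a median of 5099. Of the 12 animals, 6 had at least 4 granule neurons and the other 6 had at most 2, so the values of these 6 animals rest on 1 or 2 nuclei each.

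The label was checked against 12 granule neuron markers that the criteria did not use, among them Dock10, Maml2, Stxbp6, Calb1 and Dsp. Every granule neuron held UMIs of at least 4 of them, with a median of 6 and a range from 4 to 10. The other excitatory nuclei held a median of 2, and 6.88% of them held 4 or more. After each nucleus with at least 3000 UMIs was thinned to 3000 UMIs, 92.3% of 52 granule neurons and 2.13% of 20642 other excitatory nuclei still held 4 or more. The nuclei were chosen from the same counts, so these values describe the chosen nuclei and are not a test. All comparisons of levels between granule neurons and other nuclei below are descriptions of this kind. So is that of the share of nuclei with the AAV transcript, although a p-value is given for it.

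The thresholds cut through a continuous range. The 23 granule neurons with a Prox1 count just inside the threshold held a median of 7 of the 12 markers. The 40 nuclei with 2 UMIs of Prox1 that met the other criteria, just outside the threshold, held a median of 6. Likewise, the 15 granule neurons with 1 UMI of Glis3 held a median of 6 markers. The 26 nuclei without Glis3 that met the other criteria held a median of 5. Of the 15 granule neurons at this Glis3 threshold, 3 were WT and 12 were Het. Of the granule neurons, 32 had a single UMI of Slc17a7, the vesicular glutamate transporter VGLUT1, and 156 nuclei met the criteria when Slc17a7 was not required.

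**Figure D1:**
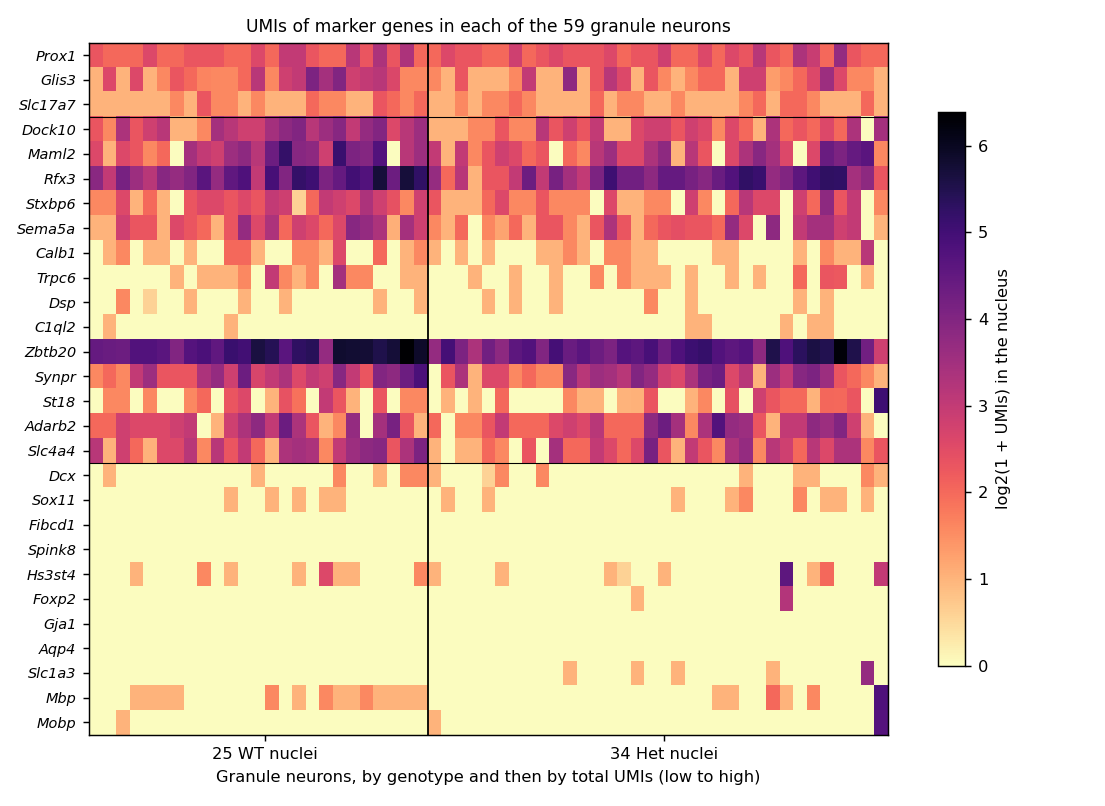
UMIs of 28 genes in each of the 59 granule neurons, on a log2(1 + UMIs) colour scale, with 25 WT nuclei on the left and 34 Het nuclei on the right, each ordered by total UMIs. The top 3 rows are genes used by the criteria, and the middle rows are genes high in granule neurons, some of them found in few nuclei. The lower rows are markers of immature neurons and of other cell types. Most of these were sparse, with Dcx in 15 and Sox11 in 14 of the 59 nuclei.

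Prox1 and Glis3 were high by construction. Prox1 (ENSMUSG00000010175.13, mm10 chromosome 1, 190118035 to 190170714) stood at 747 CPM (UMIs of the gene per 1000000 UMIs) over the pooled granule neurons and 3.42 CPM over the other excitatory nuclei. Glis3, a zinc-finger transcription factor, stood at 677 and 26.9 CPM. A granule neuron held a median of 4 UMIs of Prox1 and a maximum of 12. The median count of Glis3 was 3 and the maximum was 16.

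Among the abundant genes that the criteria did not use and that were higher in granule neurons in all 12 animals, Maml2, Dock10, Synpr and Zbtb20 had the highest pooled ratios to the other excitatory nuclei. Dock10 (ENSMUSG00000038608.15, mm10 chromosome 1, 80501073 to 80758527), an exchange factor for small GTPases, was at 938 CPM (exact 95% Poisson interval 840 to 1046) against 47.6 CPM, a ratio of 19.7. Over the 12 animals its level in granule neurons ranged from 388 to 1601 CPM with a median of 756, and the highest value in the other excitatory nuclei was 62.7 CPM. The ranges of both populations did not overlap. Maml2 (mm10 chromosome 9, 13297957 to 13709388), a coactivator of Notch signalling, was at 1451 CPM against 65.3 CPM, a ratio of 22.2, and ranged from 226 to 2675 CPM with a median of 1398. Synpr (mm10 chromosome 14, 13284780 to 13616340) encodes synaptoporin, a synaptic vesicle protein of mossy fibre terminals. It was at 1338 CPM against 71.6 CPM and ranged from 884 to 2169 CPM with a median of 1362. Zbtb20 (mm10 chromosome 16, 42875881 to 43642602), a transcriptional repressor that specifies hippocampal identity, was at 5093 CPM against 305 CPM. It was the steadiest of these genes over animals, from 4269 to 5766 CPM with a median of 4889. All Poisson intervals in the text cover counting error only.

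There were 3552 genes with a mean of at least 50 CPM in granule neurons or in the other excitatory nuclei. A gene without UMIs in the granule neurons of an animal counted as lower there, while higher needed UMIs. WT female 1 had 5152 UMIs from 1 nucleus, so the counts of higher and lower genes are not alike measures. Of the 3552 genes, 106 were higher in granule neurons in all 12 animals (2.98%) and 243 were lower in all 12 (6.84%). The 20 genes with the largest median ratio among the former included channels and receptors, such as the cation channel Trpm3 at 3456 against 371 CPM and the serotonin receptor gene Htr4 at 278 against 31.8 CPM. They also included the mineralocorticoid receptor gene Nr3c2 at 1471 against 202 CPM and the transcription factor gene Rfx3 at 3187 against 462 CPM. Cell-surface and polarity genes were the orphan receptor gene Ror1 at 176 against 19.4 CPM, the guidance cue gene Sema5a at 766 against 86.5 CPM, the cadherin genes Cdh9 at 784 against 100.4 CPM and Fat4 at 162 against 27.5 CPM, and the polarity gene Pard3 at 395 against 54.1 CPM. The remaining members were Stxbp6 at 586 CPM, Slc4a4 at 924 CPM, the lipid kinase gene Pip5k1b at 607 CPM, the kinase gene Prkd1 at 396 CPM, Tanc1 at 383 CPM, Dnah9 at 280 CPM and Arhgap12 at 189 CPM, at ratios between 4.77 and 8.78.

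Some of these genes also separated granule neurons from CA-type nuclei, and others did not. CA-type nuclei were the 29 excitatory nuclei without Prox1 that held at least 2 UMIs of the CA1 markers Fibcd1 and Spink8, with 235605 UMIs in all. Stxbp6 was at 16.98 CPM in them (interval 4.63 to 43.5), Synpr at 19.8, Sema5a at 27.6, Dock10 at 29.7 and Slc4a4 at 38.2 CPM. For 4 of these 5 genes the interval in CA-type nuclei lay below the level in the other excitatory nuclei. For Dock10 the interval of 11.9 to 61.2 CPM included it. Zbtb20, by contrast, was at 1452 CPM in CA-type nuclei and Nr3c2 at 717 CPM, both between the other excitatory nuclei and the granule neurons. Arhgap12 was at 206 CPM in CA-type nuclei and 189 CPM in granule neurons, with overlapping intervals.

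**Figure D2:**
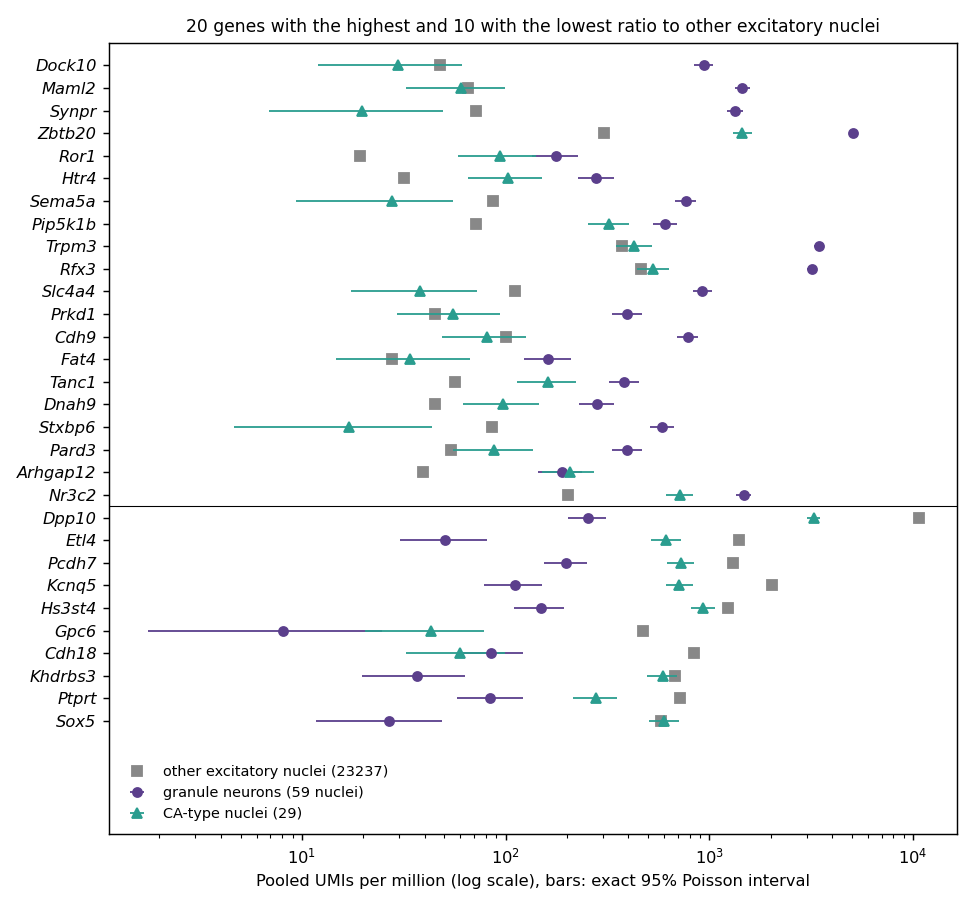
Pooled CPM, on a log scale, in granule neurons (circles), other excitatory nuclei (squares) and CA-type nuclei (triangles), for the 20 genes with the highest and the 10 with the lowest median ratio of granule neurons to other excitatory nuclei, with exact 95% Poisson intervals for both small populations. Zbtb20 and Nr3c2 lie between the other excitatory nuclei and the granule neurons in CA-type nuclei, while Stxbp6, Synpr and Dock10 lie at or below the other excitatory nuclei there.

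Less abundant markers of granule neurons had few UMIs, and C1ql2, Dsp, Tdo2 and Lct had none in CA-type nuclei. C1ql2, which encodes a secreted synaptic organizer of mossy fibres, had 7 UMIs in 7 nuclei, at 19.9 CPM (interval 7.98 to 40.9) against 0.224 CPM in the other excitatory nuclei. Dsp, which encodes desmoplakin, was found in 14 nuclei at 44.0 CPM against 0.881 CPM. Tdo2, which encodes tryptophan dioxygenase, was found in 4 nuclei at 14.2 CPM against 0.336 CPM, and the lactase gene Lct in 7 nuclei at 22.7 CPM against 1.17 CPM. Calb1 was found in 33 nuclei at 164 CPM against 26.9 CPM and was higher in granule neurons in 10 of 12 animals. Trpc6, a cation channel gene, was found in 29 nuclei at 167 CPM against 20.98 CPM. Plk5 had 3 UMIs and was not distinguishable from the other nuclei at this depth.

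Among the 10 genes with the lowest median log2 ratio over animals of granule neurons to other excitatory nuclei, the lowest at -5.95 was Dpp10, an auxiliary subunit gene of Kv4 potassium channels. Its pooled level was 253 CPM against 10670 CPM, 42.1-fold lower. Across animals the other excitatory nuclei had at least 9959 CPM of Dpp10 and the granule neurons had at most 856 CPM. Etl4 was 27.6-fold lower, the transcription factor gene Sox5 21.7-fold lower and Khdrbs3, an RNA-binding protein gene, 18.4-fold lower. The M-type potassium channel gene Kcnq5 stood at 111 against 2032 CPM. Cdh18, Ptprt, Hs3st4 and Pcdh7 were between 6.58-fold and 9.90-fold lower. Gpc6, a glypican gene, had 2.83 UMIs in all and stood at 8.04 against 471 CPM. Kcnt1, a sodium-activated potassium channel gene, had none, which allows at most 8.51 CPM if a count of 0 is given an upper limit of 3 counts.

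Several of these low values rested in part on few nuclei. Of the 59 granule neurons, 25 held at least 1 UMI of 12 markers of other cell types, among them Mbp, Gja1, Slc1a3, Aqp4, Csf1r, Flt1, Pdgfra, Foxp2, Rorb, Fibcd1 and Spink8. In the 34 without any, Pcdh7 stood at 33.9 CPM instead of 198 CPM, Hs3st4 at 56.8 instead of 149 CPM and Dpp10 at 146 instead of 253 CPM. The highest ratios did not fall in the same way: Maml2 stood at 1680 CPM, Zbtb20 at 5560 CPM and Dock10 at 903 CPM in these 34 nuclei.

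Marker lists of other cell types differed. The lists of mossy cells at 5.67 CPM, vascular cells at 4.25 CPM, oligodendrocyte precursors at 11.3 CPM and microglia at 32.6 CPM were low in sum. The lists of interneurons, astrocytes, CA1, CA2 and CA3, striatal and neocortical neurons and oligodendrocytes were not, and in most of them 1 or 2 genes held the bulk. The astrocyte genes Gja1, Aqp4, Gfap and Fgfr3 had no UMI. Slc1a3 had UMIs in Het animals only, at 389 CPM in Het female 1 and at most 99.3 CPM in the others. The astrocyte list summed to 970 CPM, nearly all of it from Slc4a4, a sodium bicarbonate cotransporter gene that was also among the 20 genes above. Slc4a4 was found in 56 of 59 nuclei, at 924 CPM against 111 CPM, and at 1034 CPM in the 34 nuclei without markers of other cell types. Most of the 1212 CPM of the interneuron list came from Adarb2, which encodes a protein related to RNA-editing enzymes and is widely used to mark interneurons. Adarb2 was found in 55 nuclei at 1084 CPM (interval 977 to 1198) against 84.6 CPM and was higher in 11 of 12 animals, while Sst, Pvalb and Lamp5 were at 0 and Vip had 1 UMI. The CA1 list summed to 574 CPM against 846 CPM in the other excitatory nuclei and 2196 CPM in CA-type nuclei. The last value is high in part by construction, since Fibcd1 and Spink8 of this list defined CA-type nuclei. Its genes Fibcd1, Spink8 and Pou3f1 had no UMI, while Pex5l was found in 48 nuclei and in every animal, at 517 against 649 CPM, and Man1a in 3 nuclei at 42.5 CPM. The CA2 and CA3 list summed to 506 against 224 CPM, of which Grik4 held 479 CPM, and its genes Bok, Cdh24 and Amigo2 had no UMI. The striatal list summed to 490 against 1448 CPM, of which Pde10a held 470 CPM, and Adora2a and Ppp1r1b had no UMI. The neocortical list summed to 352 against 2120 CPM, mostly from Hs3st4 at 149 CPM and Tle4 at 148 CPM. The mossy cell genes Drd2 and Csf2rb2 had no UMI. Among vascular and microglial markers, Flt1, Cldn5, Rgs5 and C1qa had none and Csf1r had 1 UMI. Across animals the interneuron list summed to between 0 and 1240 CPM in WT and between 838 and 3113 CPM in Het, and the astrocyte list to between 388 and 1376 CPM in WT and between 695 and 1171 CPM in Het. The part of these lists in the comparison of genotypes was not tested.

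The oligodendrocyte list of 5 genes summed to 318 CPM in granule neurons against 97.4 CPM in the other excitatory nuclei. Mbp, the myelin basic protein gene, had 52 UMIs in 20 nuclei. A single nucleus of Het female 3 held 27 of the 52 Mbp UMIs, 25 of the 27 Mobp UMIs and all 7 Mog UMIs, and it was also among the 5% of nuclei of its library with the highest doublet scores. The list summed to between 0 and 226 CPM in WT animals and between 0 and 1273 CPM in Het animals. Without the nuclei of highest doublet score, which included this one, no gene was called between genotypes either.

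Markers of immature granule neurons were sparse. Their list of 11 genes summed to 144 CPM, against 157 CPM in the other excitatory nuclei and 91.3 CPM in CA-type nuclei. The criteria require Slc17a7 and exclude Gad1 and Gad2, and whether they left out immature granule neurons was not tested. Dcx, the microtubule protein of migrating neuroblasts, was found in 15 nuclei at 58.1 CPM (interval 34.6 to 87.6) against 87.6 CPM in the other excitatory nuclei. Sox11 was found in 14 nuclei at 45.4 CPM against 19.4 CPM. Eomes, a marker of intermediate progenitors, and Draxin had no UMI, and Igfbpl1 had 2 UMIs in 1 nucleus. Of the 15 nuclei with Dcx, 11 also held Calb1. By genotype, 6 of 25 WT and 9 of 34 Het nuclei held Dcx, and 15 of 25 WT and 18 of 34 Het nuclei held Calb1. These are counts of nuclei from few animals and were not tested.

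Receptor genes differed gene by gene. Among the 14 genes of ionotropic glutamate receptors and their auxiliary subunits at 50 CPM or more, Grin2a, Gria1 and Grik2 were higher in granule neurons in all 12 animals and Gria4 was lower in all 12. Grik2, the GluK2 kainate receptor subunit of mossy fibre synapses, was at 2560 against 1041 CPM. Grik4, the GluK4 subunit, was at 479 against 208 CPM and higher in 11 animals. Gria1 was at 3073 against 1280 CPM and Grin2a at 3714 against 2180 CPM. Gria4 was at 328 against 845 CPM.

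Metabotropic and GABA-A receptor genes were likewise divided. Of 14 at 50 CPM or more, 3 were higher in all 12 animals, Gabra2 and Gabrb1 among them, and Grm3, Grm8 and Gabrg3 were lower in all 12. Grm8, a group III metabotropic receptor gene, stood at 56.6 against 703 CPM and Gabrg3 at 123 against 817 CPM. Grm7 was at 2890 against 3012 CPM and Grm5 at 1905 against 2272 CPM. Gabrd, the delta subunit gene of tonic inhibition, had 2 UMIs and could not be assessed.

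Among 18 potassium and HCN channel genes at 50 CPM or more, Kcnd2 and Kcnj3 were higher in all 12 animals. Kcnd2, which encodes the A-type channel Kv4.2, was at 4405 against 2371 CPM, and Kcnj3, a G-protein-gated channel gene, at 1036 against 562 CPM. Of 2 that were lower in all 12, Kcnq5 is described above. Kcnip4, a Kv4-associated protein gene, was at 10396 against 9184 CPM and higher in 9 animals, and the calcium-gated channel gene Kcnma1 was at 1329 against 2129 CPM.

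Calcium handling genes included Ryr2, an intracellular calcium channel gene, at 2659 against 1507 CPM, and Ppp3ca, the catalytic subunit gene of calcineurin, at 2540 against 1098 CPM, each higher in all 12 animals. Camk2a was at 1018 against 612 CPM and higher in 10 animals. Camk4 was at 180 against 502 CPM and Atp2b2 at 420 against 654 CPM, each lower in all 12. Among genes of transmitter release and synapse organization, 6 of 11 at 50 CPM or more were lower in all 12 animals and none was higher in all 12. Nrxn3 was at 992 against 5596 CPM, and at 395 CPM in the 34 nuclei without markers of other cell types. Rims2 was at 439 against 1086 CPM and Syt1 at 2583 against 3697 CPM. Rims1 was at 1812 against 2129 CPM, but its level in granule neurons was 2335 CPM in WT male 2 and 2227 CPM in WT female 2. C1ql3, a relative of C1ql2, was found in 17 nuclei at 65.2 against 11.4 CPM.

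Of 28 guidance and adhesion genes at 50 CPM or more, 7 were higher and 7 were lower in all 12 animals. The semaphorin receptor gene Plxna4 was at 1569 against 465 CPM, Epha6 at 1910 against 732 CPM, Slit1 at 349 against 109 CPM, Slit3 at 1922 against 819 CPM and Tenm1 at 1076 against 484 CPM. Lrrc4c was at 655 against 2193 CPM, Tenm3 at 101 against 511 CPM and Epha5 at 387 against 740 CPM. Tenm3 was at 1445 CPM in CA-type nuclei. The adhesion genes of highest level were Tenm2 at 5188 against 3448 CPM and Cntn5 at 2091 against 1155 CPM, each higher in 10 animals. The counts of the gene lists stand beside 2.98% higher and 6.84% lower in all 12 animals among the 3552 genes at 50 CPM or more. Among the 337 genes with enough counts in granule neurons to be tested between genotypes, 22% were higher and 10.7% lower. Higher genes thus outnumbered lower ones there, the reverse of the 3552 genes. The 337 genes were selected on their counts in granule neurons, which favours genes high in these nuclei. Their shares therefore do not show how such patterns depend on the depth of counting, which was not tested.

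**Figure D3:**
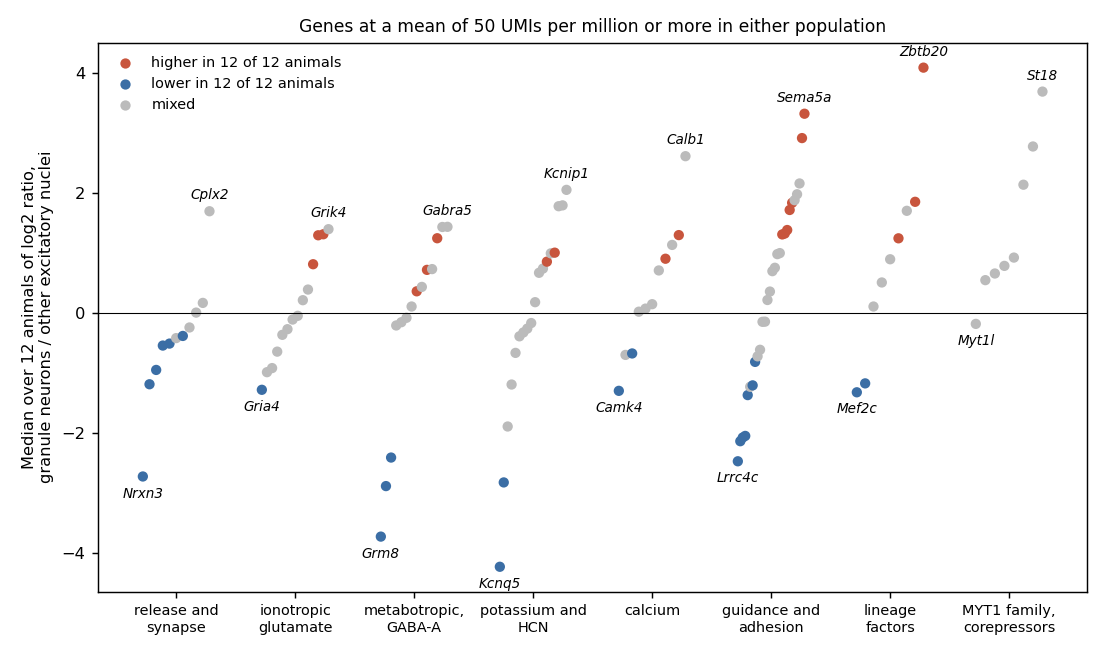
Median over 12 animals of the log2 ratio of granule neurons to other excitatory nuclei, with 0.5 counts added to each sum, for genes at a mean of 50 CPM or more in either population, by gene list. Red points were higher and blue points lower in 12 of 12 animals, and each list holds genes on both sides of 0.

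Among transcription factor genes of the hippocampal and granule lineage, 9 were at 50 CPM or more. Zbtb20, Bcl11b and Nfib were higher in all 12 animals, and Mef2c and Bcl11a were lower in all 12. Bcl11b, a zinc-finger factor gene needed for granule neuron differentiation, was at 238 against 69.7 CPM. Nfib was at 835 against 394 CPM and Tcf4 at 1849 against 1049 CPM, the latter higher in 11 animals. Mef2c was at 305 against 703 CPM. Neurod6, a gene of pyramidal neurons, had no UMI, against 10.6 CPM in the other excitatory nuclei and 25.5 CPM in CA-type nuclei.

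Few activity-regulated genes could be read. Fos and Arc had no UMI. In Het female 1, Nr4a3 was at 299 CPM and Egr3 at 210 CPM, and in the other animals at most 19.4 and 59.9 CPM. The list summed to between 0 and 688 CPM in WT and between 0 and 1647 CPM in Het animals. The sums were not tested. Bdnf, the gene of brain-derived neurotrophic factor, was found in 17 nuclei at 122 against 40.1 CPM, with 11 of its 43 UMIs in 1 nucleus, and was higher in 7 animals. Homer1 was at 248 against 500 CPM and lower in 10 animals.

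The MYT1 family was of interest because Myt1l carries the mutation. Myt1l itself stood at 905 CPM (interval 808 to 1010) in granule neurons, 1008 CPM in the other excitatory nuclei and 895 CPM in CA-type nuclei, and it was found in 57 of 59 granule neurons. Both other members of the family were higher in granule neurons. St18 (ENSMUSG00000033740.17, mm10 chromosome 1, 6487231 to 6860940), also known as Myt3, was at 366 CPM (interval 305 to 435) against 22.4 CPM, a ratio of 16.3, with 1 UMI in CA-type nuclei. It was found in 37 nuclei and was higher in 11 of 12 animals, from 0 to 810 CPM with a median of 248. St18 is also expressed by oligodendrocytes, and the nucleus rich in myelin transcripts held 32 of its 129 UMIs. In the 34 nuclei without the 12 markers of other cell types, St18 stood at 336 CPM, and the part of oligodendrocyte transcripts in its level was not tested. Myt1 was at 90.8 CPM (interval 62.1 to 128) against 15.7 CPM, was found in 21 nuclei and was higher in 9 of 12 animals. Its level was 108 CPM in the 34 nuclei. Of the corepressor genes of the list, Ncor1 was at 457 against 307 CPM and Hdac1 at 57.7 against 12.5 CPM, while Rest had no UMI.

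The numbers of granule neurons did not differ detectably between genotypes. There were 25 in WT and 34 in Het animals. The 6 WT animals had 2, 6 and 10 in males and 1, 4 and 2 in females, and the 6 Het animals had 2, 2 and 10 in males and 7, 2 and 11 in females. As a share of excitatory nuclei, this was 0.219% ± 0.116 (SD, n = 6) in WT, with a median of 0.209% and a range from 0.0840% to 0.365%. In Het it was 0.251% ± 0.178 (SD, n = 6), with a median of 0.188% and a range from 0.0908% to 0.497%. The groups overlapped over most of their range. The difference of 0.0314 percentage points was smaller than either SD (two-sided exact permutation test over 924 relabellings, p = 0.701, p = 0.701 after Benjamini-Hochberg adjustment over 3 measures). The exact 95% binomial interval of a single animal was wide, from 0.238% to 0.912% in Het male 3 and from 0.00213% to 0.467% in WT female 1.

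Within males the share was 0.291% in WT and 0.233% in Het, and within females 0.148% and 0.268%, with exact permutation p = 0.8 and p = 0.3 (n = 3 per group, where 0.1 is the smallest value the test can give). The difference between the sexes in this effect had p = 0.315 by exact permutation of sex labels within each genotype. CA-type nuclei, the other hippocampal population counted, numbered 9 in WT and 20 in Het animals. Their share was 0.0885% ± 0.0579 (SD) in WT and 0.140% ± 0.103 (SD) in Het (exact permutation p = 0.318, adjusted p = 0.701). The log2 ratio of granule to CA-type nuclei was 1.10 ± 0.88 in WT and 0.84 ± 1.27 in Het (exact permutation p = 0.69, adjusted p = 0.701). The amount of hippocampus in each cortical dissection is not given, and its part in these shares was not tested.

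**Figure D4:**
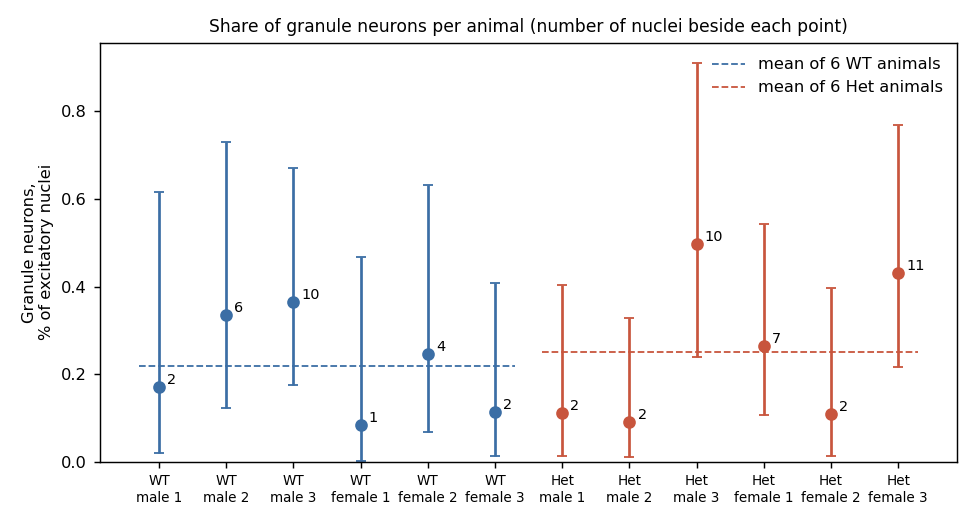
Granule neurons as a percentage of excitatory nuclei in each of the 12 animals, with exact 95% binomial intervals and the number of nuclei beside each point. Dashed lines are the means of 6 animals, 0.219% in WT and 0.251% in Het, and the intervals of most animals overlap.

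Myt1l did not differ detectably between genotypes in granule neurons. The allele is a frameshift, so the transcript need not fall and does not check the genotype. Myt1l (ENSMUSG00000061911.15, mm10 chromosome 12, 29528384 to 29923213) ranged from 723 to 1553 CPM with a median of 844 in WT animals and from 512 to 1390 CPM with a median of 880 in Het animals. The groups overlapped almost completely. The means were 1030 ± 380 CPM in WT and 903 ± 294 CPM in Het (SD, n = 6, two-sided exact permutation p = 0.541). In the other excitatory nuclei of the same animals the means were 964 ± 84.7 CPM in WT and 1053 ± 42.8 CPM in Het (two-sided exact permutation p = 0.0455). The edgeR fit gave a log2 fold change of 0.01 ± 0.26 (SE), with an adjusted p of 0.996 in granule neurons.

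No gene was called between genotypes. Sums of counts per animal were compared with edgeR's quasi-likelihood test for the 337 genes that passed its filter on low counts, at a Benjamini-Hochberg adjusted p below 0.05 and an absolute log2 fold change above 0.2. The share called was 0%, with 0 of 337 genes, and 13 genes had an unadjusted p below 0.05. DESeq2 also called 0 genes, with 13 at an unadjusted p below 0.05. The median log2 fold change of the 337 genes was 0.01, with 173 above and 164 below 0. In the other excitatory nuclei of the same animals, which held 147501004 UMIs in all, 42 of 16624 genes were called (0.253%), so the granule neurons were tested at far lower depth and for far fewer genes.

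The gene with the smallest p was Tafa1 (ENSMUSG00000059187.12, mm10 chromosome 6, 96113154 to 96657198), which encodes a secreted chemokine-like protein of neurons. It ranged from 1010 to 1941 CPM with a median of 1400 in WT animals and from 199 to 1025 CPM with a median of 551 in Het animals, so the lowest WT value lay just under the highest Het value. Its log2 fold change was -1.06 ± 0.29 (SE), with an edgeR adjusted p of 0.446. It did not pass the test.

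**Figure D5:**
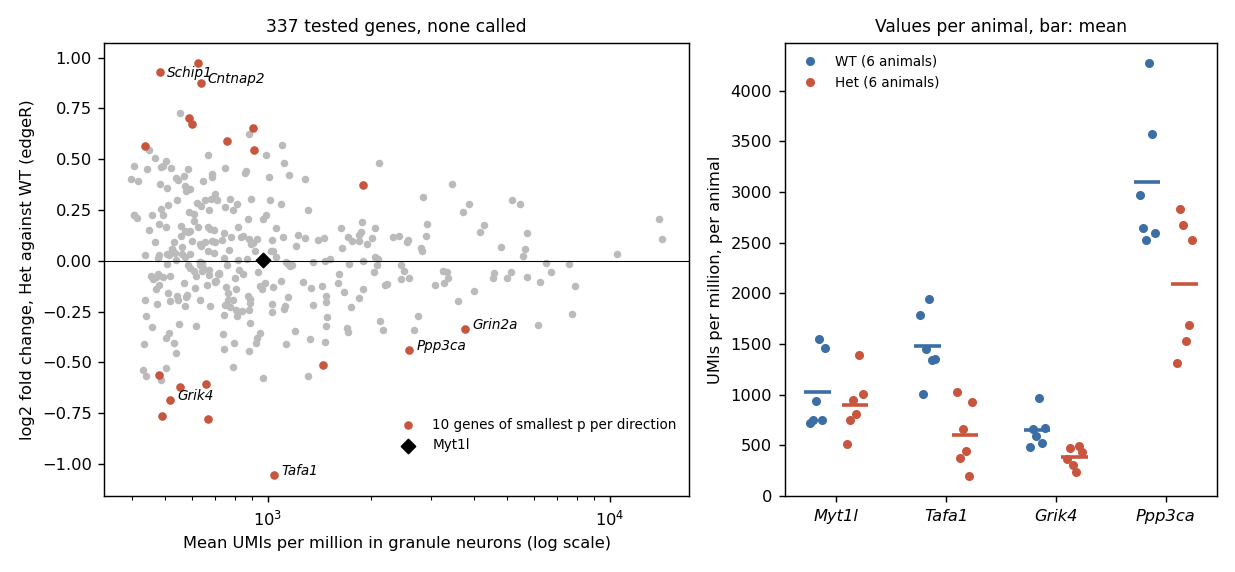
Left, log2 fold change of Het against WT and mean level for 337 tested genes, with the 10 genes of smallest p in each direction in red and Myt1l as a diamond. Right, values per animal (points) and means (bars) for Myt1l, Tafa1, Grik4 and Ppp3ca, whose WT and Het ranges overlap.

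The other genes of smallest p with positive log2 fold changes were Schip1 at 0.93, the contactin-associated protein gene Cntnap2 at 0.88, the bicarbonate transporter gene Slc4a10 at 0.70, Tnrc6c at 0.67, the adenylate kinase gene Ak5 at 0.66, the kinase gene Mapk10 at 0.59, the Notch coactivator gene Maml3 at 0.56, Phactr1 at 0.55 and the kinase gene Prkce at 0.37. Those with negative log2 fold changes were the potassium channel gene Kcnh7 at -0.78, Cntnap5b at -0.76, Grik4 at -0.68, Dpyd at -0.62, the kinase gene Cdk14 at -0.60, Elmod1 at -0.56, Gm26871 at -0.51, Ppp3ca at -0.44 and Grin2a at -0.34. The adjusted p of these 18 genes lay between 0.727 and 0.934. Grik4 ranged from 482 to 971 CPM in WT and from 240 to 496 CPM in Het, and Ppp3ca from 2524 to 4270 CPM in WT and from 1318 to 2830 CPM in Het. The groups overlapped for both genes.

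None of the gene lists held a called gene. Among the most abundant members, the log2 fold change was -0.08 for Zbtb20, -0.18 for Tcf4, 0.12 for Nfib, -0.05 for Rfx3, -0.17 for Maml2 and -0.44 for Dock10. It was 0.03 for Kcnip4, 0.14 for Kcnd2, -0.27 for Ryr2, -0.08 for Syt1, 0.18 for Gria1 and -0.34 for Grik2. Tenm2 was at 0.06, Cntn5 at 0.48, Epha6 at 0.11, Gabrb1 at 0.19, Grm7 at 0.05, Camk2a at 0.21 and Ncor1 at 0.23 on the same scale. Adarb2 was at 0.57 with an edgeR adjusted p of 0.934. Of all 337 tested genes, 164 had negative log2 fold changes. The 5 tested granule neuron markers outside the criteria ranged from -0.44 to -0.04 with a median of -0.17, with SEs of 0.20 to 0.31, and the 5 tested genes of transmitter release and synapse organization from -0.27 to -0.05. None of these 10 had an unadjusted p below 0.05. The 7 tested genes of ionotropic glutamate receptors and their auxiliary subunits ranged from -0.68 to 0.18 with a median of -0.34. The 7 metabotropic and GABA-A receptor genes ranged from -0.25 to 0.19, the 8 potassium channel genes from -0.41 to 0.23, the 5 calcium genes from -0.44 to 0.21, the 14 guidance and adhesion genes from -0.58 to 0.48 and the 4 lineage transcription factor genes from -0.18 to 0.17. A further list held 24 genes picked from these same animals at this age, so it is not independent of them. Of these, 6 were tested, with log2 fold changes from -0.58 to 0.48. No activity-regulated gene passed the filter on low counts.

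The test of a difference in the Het effect between granule neurons and the other excitatory nuclei of the same animals called 0 of 337 genes (0%) by limma, with 15 at an unadjusted p below 0.05. The smallest adjusted p was 0.598, for Grik4, whose effect in granule neurons minus that in the other nuclei was -0.79 ± 0.23 (SE) on the log2 scale. In the other excitatory nuclei alone the log2 fold change of Grik4 was 0.13. The absence of a called gene does not show that granule neurons were unaffected, since 337 genes could be tested and 6 animals had at most 2 granule neurons.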

How the data were processed

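Nuclei of P21 cortex from 6 WT and 6 Het mice (3 per sex) shared plates of the Scale Biosciences kit, so no plate separates the genotypes. Per gene and barcode, the authors deposited unnormalized expected counts from reads mapped to mm10, of which 92.6% were whole within 0.001. The study later removed multiplets (DoubletFinder) and nuclei outside its UMI limits. That removal is not reflected in these matrices as far as the limits show, since they hold barcodes above the upper one. Yet the paper reports more P21 nuclei after quality control than the 78743 barcodes held here. The matrices therefore cannot hold all of its nuclei, and the reason could not be settled from the sources. The gene annotation release, the use of strand in counting and the litter of each animal are not given in the sources used here, so overlapping genes cannot be told apart. Members and gene lists were chosen with earlier results of these data known. Counts of granule neurons were summed per animal and rounded. AAV-derived tdTomato and the 5 genes of the criteria were left out of the calls. Tests were edgeR 4.0.16 (TMM, filterByExpr, robust quasi-likelihood), DESeq2 1.42.0 as an alternative, limma 3.58.1 for the difference between populations, and exact permutation tests over animals. p-values rest on the spread between these animals, which also holds counting error and the sampling of few nuclei. Litter could not be modelled. The gene-wise fits were also run on simulated data with a common dispersion and with larger changes than most estimates here. That run does not show their power for smaller changes. Named genes were the genes of the criteria, Myt1l, Dock10, the 10 of smallest p in each direction, the 20 highest and 10 lowest relative to other excitatory nuclei, and abundant members of fixed lists. A few genes that these rules select are not reported here. Others named were picked from those lists after their values were seen. No doublets were removed here, and an alternative left out the 5% of nuclei with the highest Scrublet score in each animal. Other alternatives were limits on nuclei, the Prox1 threshold, the Slc17a7 criterion, normalization, filters, covariates and each animal left out. The Glis3 threshold was not varied. Gene positions come from GENCODE (mm10), matched by identifier for 55154 of 55335 genes.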

Additional observations from a re-analysis of the deposited data

Results flagged for a closer look

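The transcript of the injected AAV, which belongs to no comparison above, was found in 21 of 59 granule neurons (35.6%, exact 95% binomial interval 23.6% to 49.1%) and in 13826 of 23237 other excitatory nuclei (59.5%). The share was lower in granule neurons in 11 of 12 animals, by 26.3 percentage points on average, and a two-sided exact sign-flip test over the 12 animals gave p = 0.00244. This test was chosen after the values were seen. Leaving out each animal gave p between 0.000977 and 0.00488. In nuclei thinned to 3000 UMIs the shares were 23.1% of 52 and 45.0% of 20642. It was 62.1% of the 29 CA-type nuclei and 34.5% of 313 nuclei with at least 3 microglial markers and no Slc17a7, Gad1 or Gad2. Microglia-type nuclei had a median of 4116 UMIs, granule neurons 5410 and other excitatory nuclei 6138. The share in granule neurons was close to that in microglia-type nuclei, so it cannot be told from the level of free RNA. By genotype, 8 of 25 WT and 13 of 34 Het granule neurons held the transcript.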

How the results depend on the processing

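The difference in share between genotypes kept its sign in 20 of 23 alternatives, from -0.0575 percentage points in males only to 0.133 points with the study's limits on nuclei (exact permutation p = 0.379). None of these alternatives varied the Glis3 threshold. A single UMI of Glis3 was held by 3 WT and 12 Het granule neurons, and whether the sign holds at a higher Glis3 threshold was not tested. Leaving out each animal gave -0.0178 to 0.0634 points, with the sign turned without Het male 3 (-0.0178) or Het female 3 (-0.00467), the 2 Het animals of highest share. No alternative reached p below 0.05 (0.249 to 0.968), but 3 of 100 thinnings to 3000 UMIs did alone, the lowest at 0.0303. Their mean per animal, chosen after seeing the data, gave 0.0284 points (exact permutation p = 0.487).

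In 25 of 26 alternatives 0 genes were called. Without the filter on low counts edgeR called 2 of 4681. Both rested on few animals: Pcdh7 stood at 928 CPM in Het female 1 and 514 CPM in Het female 3 and at no more than 94.3 CPM in the others, and Mir670hg had a median of 0 in both genotypes. Myt1l had log2 fold changes from -0.09 to 0.37, with a negative sign in 12 of 24 alternatives. Among these were DESeq2 size factors (-0.00051), Prox1 of at least 2 (-0.0027), females only (-0.091), males only (-0.0083), sex as a covariate (-0.057) and no nuclei of high doublet score (-0.014). Leaving out each animal gave -0.092 to 0.13. All had an edgeR or DESeq2 adjusted p of at least 0.983, and Myt1l was not tested with the study's limits. The signs of the 20 genes of smallest p held in 406 of 409 fits, counting only alternatives in which a gene was tested. These genes were picked by p in the same animals, and the alternatives share most of their counts. Their signs were therefore likely to hold and do not support a change. The sizes moved, as for Tafa1 from -1.25 to -0.25, Schip1 from 0.07 to 1.03, Slc4a10 from 0.13 to 1.047 and Cntnap5b from -1.39 to -0.17. The exceptions in sign were Mapk10 at -0.0084 when Slc17a7 was not required, a choice made after seeing the data, Phactr1 at -0.066 in males only and Kcnh7 at 0.0013 with Prox1 of at least 2. The cause was not tested.

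Animals shared replicate numbers across genotypes, but the correlations of same-numbered animals ran from -0.166 to 0.0889, so the numbers were not taken as pairs. With the replicate block the share gave p = 0.719 by an exact sign-flip permutation test, 0 genes were called in both comparisons, and Myt1l had a log2 fold change of -0.084. Without nuclei holding markers of other cell types, WT female 3 had none left and was dropped. With CA-type nuclei as the reference, WT female 1 and Het male 1 had none and were dropped.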
